A study of Mus musculus with 16 samples.

Results

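The genes described here encode subunits of the mitochondrial respiratory chain and of ATP synthase. A gene was included when its symbol on the array platform started with Ndufa, Ndufb, Ndufc, Ndufs, Ndufv, Uqcr, Cox4 to Cox8 or Atp5, and Ndufaf assembly factors were left out. Of 18194 genes measured, 78 met this rule. They were 36 genes of complex I, 8 of complex III, 17 of complex IV and 17 of ATP synthase (complex V). Each gene is represented by the probe set with the highest mean among those that carry its symbol alone. A further 8 symbols with these prefixes, among them Ndufa11 and Ndufs6, occurred only on probe sets that also carry another symbol and were not analysed here. Ndufa4 was counted in complex I by its name, although its protein is now assigned to complex IV.

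Expression was measured on 16 Affymetrix arrays of mouse neural crest stem cells, the multipotent embryonic cells that form peripheral glia, autonomic neurons and mesenchymal tissue. Glia arrays held cells primed towards glia, Autonomic arrays cells primed towards neurons, Mesenchymal arrays cells primed towards mesenchyme, and NCSCs arrays the unprimed cells, with 4 arrays in each group. All cells are labelled as mouse primary material kept in the same stem cell medium, and priming was by instructive growth factors that the labels do not name. Strain, age and genotype are not stated either. Nothing says that the replicates of a group were separate cultures, so a p-value here reflects the spread between these arrays alone, part of which may be technical. The question addressed is whether priming towards a lineage changes the RNA of the oxidative phosphorylation machinery. In these bulk samples, fewer cells of a type and less RNA per cell cannot be told apart.

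The respiratory chain passes electrons from NADH and succinate through complexes I to IV to oxygen and pumps protons across the inner mitochondrial membrane. ATP synthase uses the return of those protons to make ATP. A few core subunits are encoded by mitochondrial DNA, and the nuclear genes treated here are known targets of the transcription factors YY1, NRF1 and GABP and of the estrogen-related receptors. Stem cells commonly rely on glycolysis, and differentiation is in several lineages accompanied by a shift towards respiration.

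Promoter sequences are shown because YY1 is a known regulator of these genes. RefSeq promoter windows of build GRCm38.p6, each of 300 bases from 250 before the gene start to 50 from it, were found for 64 of the 78 genes. Of these genes, 5 had several windows, and a gene was counted when any of its windows held a motif. The letters AAGATGGCG, a core YY1 motif, were searched on both strands. They occurred in 6 of the 64 genes (9.38%), against 2.54% of 14369 genes measured on the array. In 5 of the 6 the motif began between base 23 and base 36 of the gene. In Atp5j it began 88 bases before an annotated start, and another window of that gene held no match. In each line below, the motif is in capitals with 12 bases before and 6 after it, read on the gene's strand.
Ndufa9: gcattgtgggagAAGATGGCGgccgcc
Ndufs4: tttgcctacaggAAGATGGCGgcggtc
Ndufs7: aaggccgaggccAAGATGGCGgcgctg
Ndufc1: agcctgcggaacAAGATGGCGccgtcc
Atp5j2: caccaggacttcAAGATGGCGtcactc
Atp5j: taaagtgtaggaAAGATGGCGgagtct
These stretches lie at chr6:126849101-126849127 (Ndufa9, minus strand), chr13:114388045-114388071 (Ndufs4, minus), chr10:80249461-80249487 (Ndufs7, plus), chr3:51408919-51408945 (Ndufc1, minus), chr5:145191504-145191530 (Atp5j2, minus) and chr16:84835050-84835076 (Atp5j, minus). The NRF1 motif GCGCATGCG occurred in 7 of the 64 genes (10.94%, against 3.1% of all), and the GABP motif CCGGAAGT in 5 (7.81%, against 6.65%). The estrogen-related receptor motif TCAAGGTCA occurred in 1 (1.56%, against 0.4%). The NRF1 windows were those of Atp5g2, Atp5k, Atp5l, Cox6a1, Ndufa8, Uqcr11 and Uqcrc1. A match is a description of these letters and not evidence of binding.

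None of the 78 genes passed an adjusted p of 0.05 in limma against NCSCs, in Glia, in Autonomic or in Mesenchymal arrays. Over all genes the shares passing were 0.511% in Glia, 0.434% in Autonomic and 0.022% in Mesenchymal arrays. For the mean of the 3 primed groups the share was 0.445%, again with no subunit gene. At an unadjusted p of 0.05 in limma, Glia arrays had 0 subunit genes higher and 7 lower (8.97%), against 4% higher and 5.91% lower of all genes. Autonomic arrays had 6 higher (7.69%) and 3 lower (3.85%), against 4.29% and 5.51% of all genes. Mesenchymal arrays had 1 higher (1.28%) and 7 lower (8.97%), against 3.14% and 4.56% of all genes. The smallest adjusted p among the subunit genes was 0.302 in Glia (Atp5g2), 0.109 in Autonomic (Atp5b) and 0.354 in Mesenchymal arrays (Ndufa9).

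The intervals given here reflect the spread between arrays for the probe set used, in the values as deposited. They cover neither the choice of probe set nor the scaling of the arrays. The 95% interval of the change lay within 2-fold in both directions for 58 of 78 genes in Glia, 56 in Autonomic and 57 in Mesenchymal arrays. Among 1750 genes of like brightness, 48.7%, 46.2% and 49.8% had such an interval. These are other genes whose mean fell between the quartiles of the 71 subunit genes brighter than the median gene. On the log2 scale, the residual SD had a median of 0.361 for subunit genes, against 0.449 for the genes of like brightness. It was lowest for complex V genes (0.244) and highest for complex III genes (0.449). Atp5h and Atp5a1 had residual SDs of 0.112 and 0.126, and the widest were those of Ndufb4 (1.13) and Uqcr11 (1.01).

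**Figure D1:**
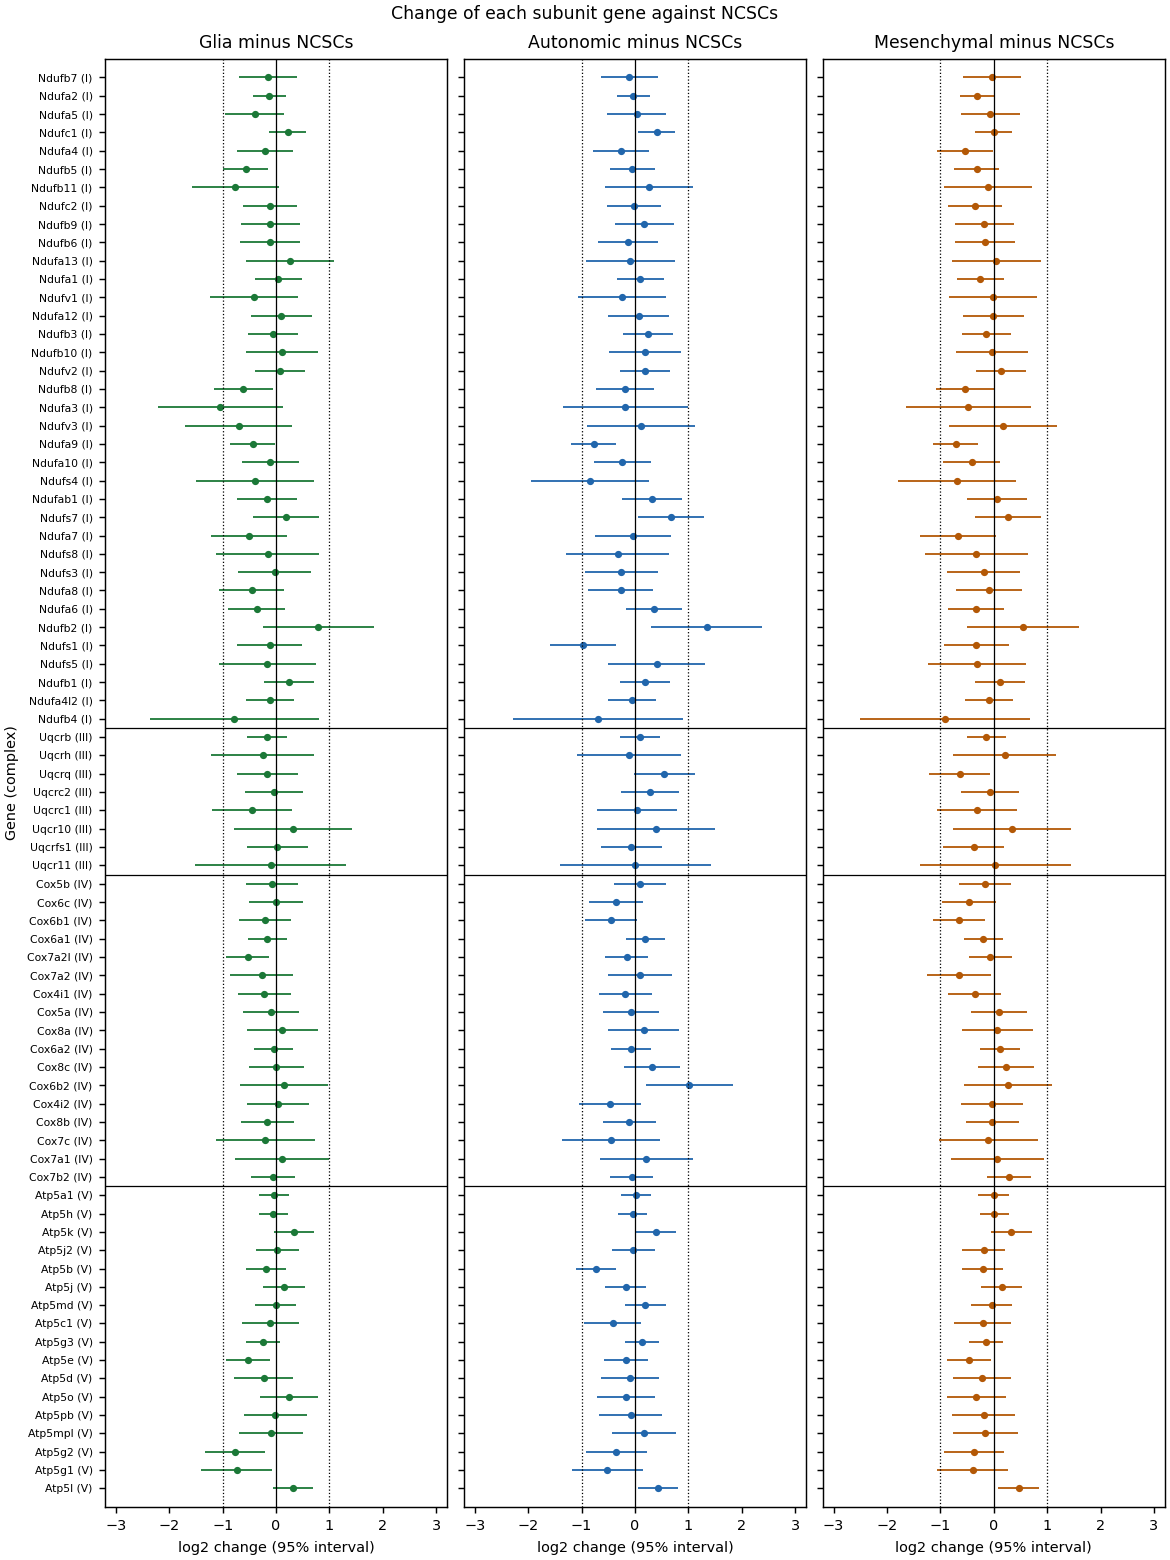
Log2 change of each of the 78 subunit genes (x axis) in Glia, Autonomic and Mesenchymal arrays relative to NCSCs arrays, grouped by complex on the y axis; points are limma estimates, lines are 95% intervals and dotted lines mark 2-fold changes. Most intervals cross 0, and 58, 56 and 57 of 78 intervals stay between the dotted lines.

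In the values as deposited, the median subunit gene was slightly lower after priming, whereas with cyclic loess or housekeeping centring it was above 0 in Glia and Autonomic arrays. The median log2 change over the 78 genes was -0.11 in Glia, -0.04 in Autonomic and -0.14 in Mesenchymal arrays, with 56, 43 and 57 genes below 0. The median of all genes was -0.01, 0.00 and -0.01. Brighter genes as a whole were also lower, however. The genes of like brightness had medians of -0.15, -0.18 and -0.16, with 63.6%, 65.0% and 63.8% below 0, against 71.8%, 55.1% and 73.1% of subunit genes. After quantile normalization the median of the subunit genes in Glia arrays was -0.01, and after cyclic loess it was 0.01 in Glia and 0.09 in Autonomic arrays. Centring on housekeeping genes moved the median of all genes to 0.32 in Glia and 0.25 in Autonomic arrays, where the subunit genes had 0.22 and 0.21. This centring shifts every gene of an array by the same amount, so it cannot change how the subunit genes stand to all genes.

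**Figure D2:**
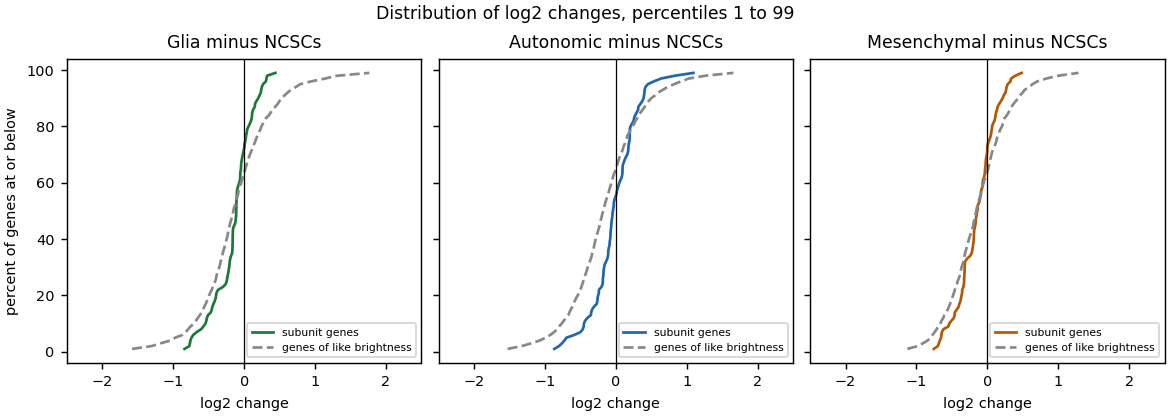
Percent of genes (y axis) at or below each log2 change (x axis) in Glia, Autonomic and Mesenchymal arrays relative to NCSCs, for the 78 subunit genes (solid) and 1750 genes of like brightness (dashed). The subunit genes form the steeper curve in each panel, with medians of -0.11, -0.04 and -0.14 against -0.15, -0.18 and -0.16.

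The same values were averaged over the 78 genes on each array, as deposited and with no other scaling. The mean log2 intensity was between 8.22 and 8.36 on Glia arrays, between 8.27 and 8.64 on Autonomic arrays, between 8.24 and 8.38 on Mesenchymal arrays and between 8.41 and 8.49 on NCSCs arrays. Every Glia and Mesenchymal array thus lay below every NCSCs array, while Autonomic arrays lay on both sides. Over the 71 subunit genes brighter than the median gene, Mesenchymal replicate 4 was at 8.956 and NCSCs replicate 2 at 8.959, almost the same. The genes of like brightness were also lower, with median changes of -0.15 in Glia, -0.18 in Autonomic and -0.16 in Mesenchymal arrays. Their mean was not computed for each array, so whether the separation is particular to the subunit genes was not tested. Complex I genes alone averaged 8.40 ± 0.02 on Glia, 8.58 ± 0.16 on Autonomic, 8.40 ± 0.08 on Mesenchymal and 8.60 ± 0.10 on NCSCs arrays (SD, n = 4 each). The Glia arrays did not overlap with NCSCs in this average, whereas the other 2 groups did. For complexes III, IV and V the arrays of every primed group overlapped with NCSCs. The log2 ratio of the 3' to the 5' Gapdh control probe sets was 2.44 to 3.33 on Glia, 2.53 to 3.10 on Autonomic, 2.66 to 3.13 on Mesenchymal and 2.20 to 2.58 on NCSCs arrays. This ratio can rise with RNA degradation. The same ratio for Actb averaged -0.17 on Glia, -0.50 on Autonomic, -0.28 on Mesenchymal and -0.53 on NCSCs arrays. With the Gapdh ratio as a covariate, the median change of the 78 genes was -0.07 in Glia, 0.01 in Autonomic and -0.11 in Mesenchymal arrays. The median of all genes was then 0.02 in each of these groups.

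**Figure D3:**
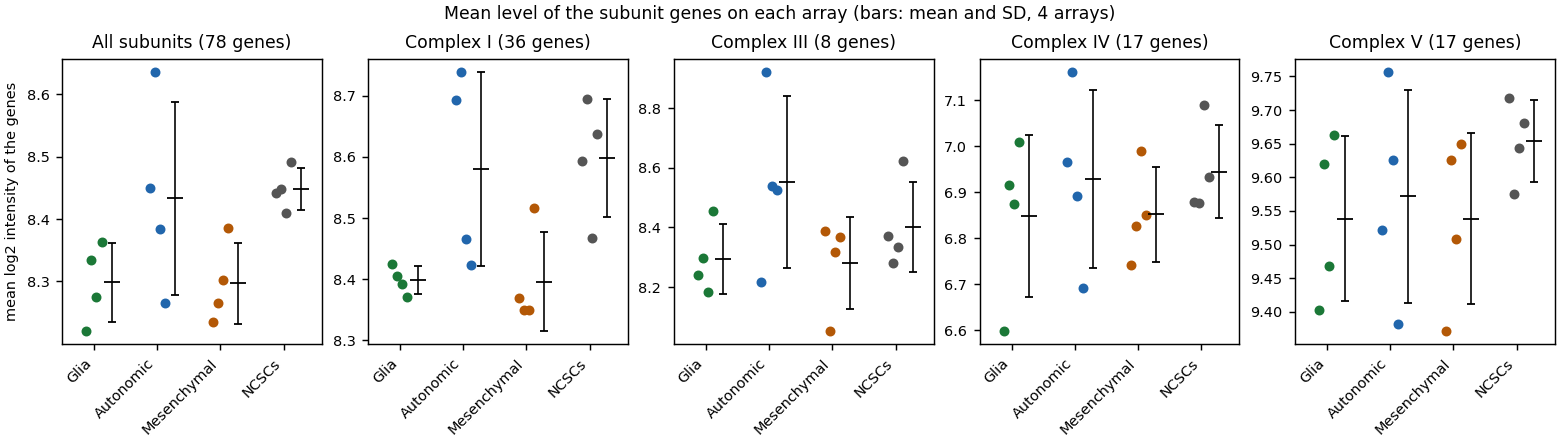
Mean log2 intensity (y axis, a separate scale in each panel) of all 78 subunit genes and of the genes of complexes I, III, IV and V on each array of the Glia, Autonomic, Mesenchymal and NCSCs groups; points are arrays, bars are mean and SD of 4 arrays. In the panel of all subunits the Glia (8.22 to 8.36) and Mesenchymal points (8.24 to 8.38) lie below the NCSCs points (8.41 to 8.49), and the Autonomic points spread from 8.27 to 8.64.

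Counting genes whose 4 primed arrays did not overlap with the 4 NCSCs arrays gave 0 higher and 6 lower in Glia (7.69% lower), against 3.02% higher and 4.16% lower of all genes. The 6 were Atp5e, Atp5g1, Atp5g2, Atp5g3, Cox7a2l and Ndufb5. In Autonomic arrays 5 genes were higher (6.41%, against 2.29% of all genes) and 4 lower (5.13%, against 3.24%). In Mesenchymal arrays 1 was higher (1.28%, against 2.41%) and 5 were lower (6.41%, against 3.29%). Leaving out an array can only keep or raise such a count. The share of all genes was not recomputed for the counts that follow. The count of lower genes in Mesenchymal arrays was 13 without NCSCs replicate 2 and 8 without Mesenchymal replicate 4. The count of higher genes in Glia arrays was 2 without Glia replicate 2 or replicate 4 and 1 without Glia replicate 1, and in Mesenchymal arrays it was 2 without Mesenchymal replicate 1 or NCSCs replicate 3. Autonomic replicate 1 stood at -39.7 on the first principal component of all genes, within the NCSCs range of -49.65 to -21.18. Mesenchymal replicate 3, at -24.8, was also within that range. Without Autonomic replicate 1, 7 genes were higher and 5 lower in Autonomic arrays without overlap.

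**Figure D4:**
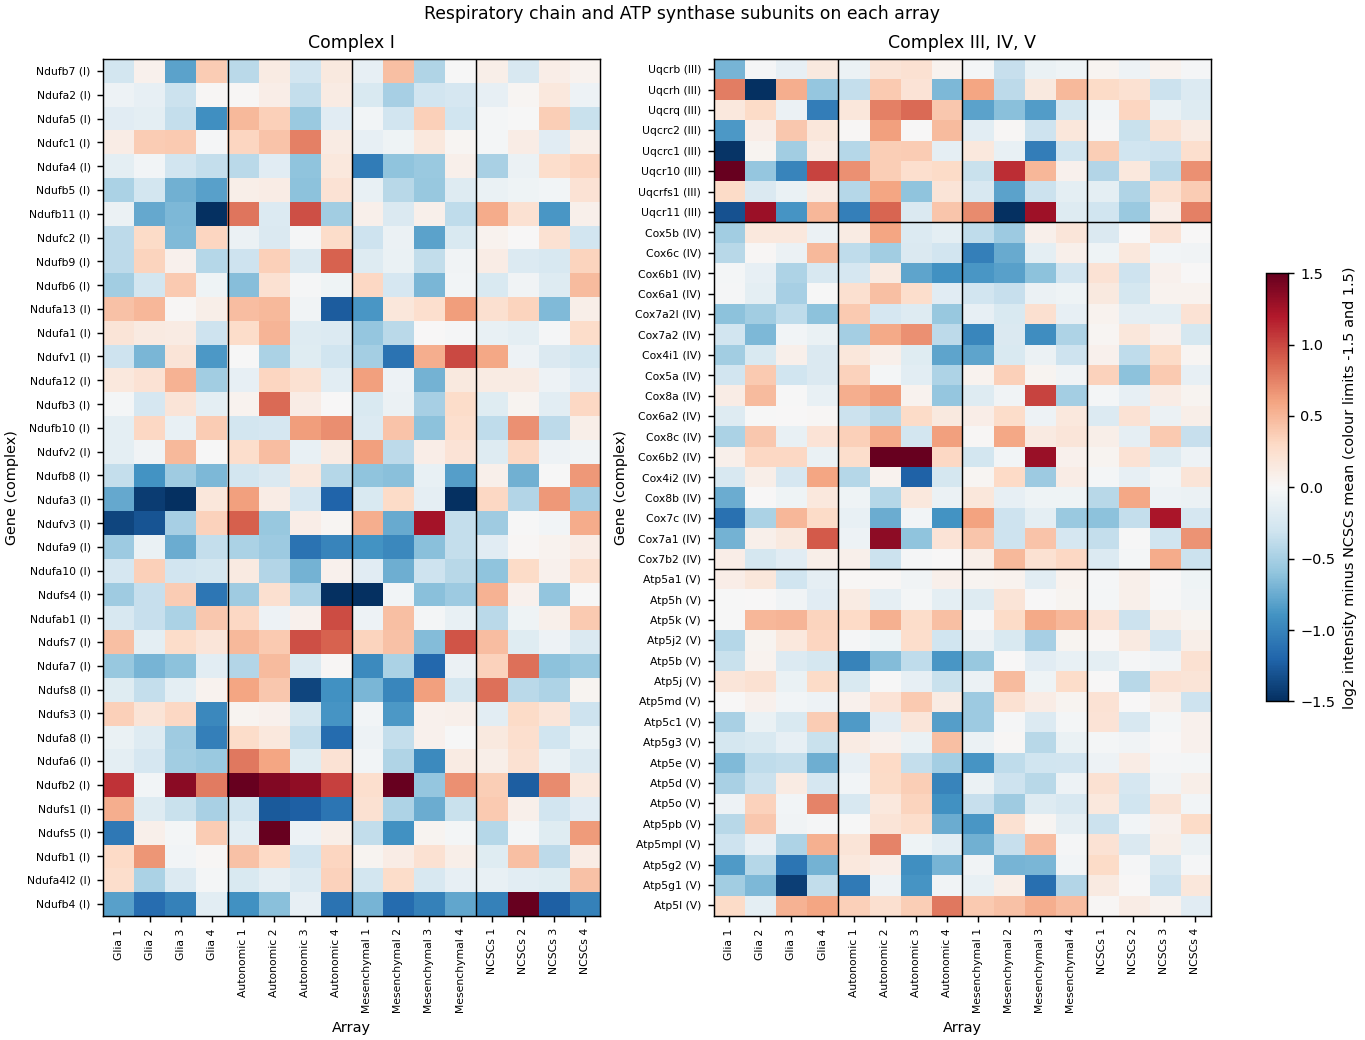
Log2 intensity of each subunit gene (rows, grouped by complex) on each array (columns: Glia, Autonomic, Mesenchymal, NCSCs, replicates 1 to 4) minus the mean of the NCSCs arrays, with colour limits at -1.5 and 1.5. The Ndufa9 row is blue or pale blue on the primed arrays, the Ndufb2 row is red on all 4 Autonomic arrays, and the rows of the probe sets used for Atp5a1 and Atp5h are near white throughout.

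Complex I takes electrons from NADH. Among its genes, Ndufa9, an accessory subunit that binds a nucleotide at the junction of the membrane and matrix arms, had the smallest adjusted p of its complex in each of Autonomic and Mesenchymal arrays. Its log2 intensity was 8.54, 8.99, 8.34 and 8.73 on Glia arrays, 8.61, 8.54, 7.98 and 8.10 on Autonomic arrays, 8.19, 8.12, 8.46 and 8.73 on Mesenchymal arrays, and 8.91, 9.10, 9.14 and 9.19 on NCSCs arrays. All Autonomic and Mesenchymal arrays lay below the lowest NCSCs array, and 1 Glia array lay within the NCSCs range. The log2 change was -0.44 (SE 0.20, limma adjusted p = 0.486) in Glia, -0.77 (SE 0.20, adjusted p = 0.130) in Autonomic and -0.71 (SE 0.20, adjusted p = 0.354) in Mesenchymal arrays. For the mean of the 3 primed groups it was -0.64, with a limma adjusted p of 0.132. Ndufa9 has a single probe set and carries the YY1 letters shown above.

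Ndufs1, the largest core subunit, which holds iron-sulfur clusters of the electron path, was low in Autonomic arrays. Its log2 intensity was 6.73, 5.77, 5.80 and 5.93 on Autonomic arrays, against 7.42, 7.10, 6.74 and 6.86 on NCSCs arrays. Autonomic replicates 2 to 4 lay well under the rest, while replicate 1 was just below the lowest NCSCs array. The log2 change was -0.97 (SE 0.29, 95% interval -1.58 to -0.36, limma adjusted p = 0.196), and without Autonomic replicate 1 it was -1.20 (adjusted p = 0.0518). In Glia and Mesenchymal arrays the changes were -0.12 and -0.33, and Glia exceeded Autonomic arrays by 0.85 (limma adjusted p = 0.647). The 6 core subunits measured had medians of -0.08 in Glia, -0.25 in Autonomic and -0.10 in Mesenchymal arrays. Another core subunit, Ndufs7, which holds the last iron-sulfur cluster before ubiquinone, had a change of 0.68 in Autonomic arrays (limma adjusted p = 0.446), with 0.38 from its other probe set, opposite in sign to Ndufs1.

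Among the 30 accessory subunits of complex I the medians were -0.16 in Glia, -0.02 in Autonomic and -0.17 in Mesenchymal arrays. Ndufb2, a small subunit of the membrane arm, had the highest change of all subunit genes in each of these groups. Its log2 intensity was 7.77, 7.52, 7.46 and 7.15 on Autonomic arrays, against 6.50, 4.89, 6.84 and 6.29 on NCSCs arrays. The Autonomic arrays all exceeded the NCSCs arrays, of which replicate 2 was far lower than the others. The log2 change was 1.34 (SE 0.49, 95% interval 0.30 to 2.39, limma adjusted p = 0.345), and its other probe sets gave 1.00 and 0.47. In Glia and Mesenchymal arrays it was 0.79 and 0.55 with overlapping arrays. Ndufc1, which sits in the membrane arm, was also higher on every Autonomic array (11.20, 11.31, 11.63 and 11.00) than on NCSCs arrays (10.85, 10.99, 10.71 and 10.97), by 0.41 (limma adjusted p = 0.404).

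In Glia arrays the lower accessory genes included several of the membrane arm. Ndufb5 had 9.69, 9.89, 9.45 and 9.35 on Glia arrays, against 10.07, 10.10, 10.13 and 10.38 on NCSCs arrays. The groups did not overlap, and the log2 change was -0.57 (SE 0.20, limma adjusted p = 0.303), with -0.63 from its other probe set. Ndufb8 had a change of -0.61 (limma adjusted p = 0.426) and Ndufb11 one of -0.76 (adjusted p = 0.55), both with overlapping arrays. Ndufa3 had the lowest change of all in Glia arrays, -1.05, but its Glia arrays ran from 6.94 to 9.28 and its 95% interval from -2.22 to 0.12. Between primed groups, Ndufb11 was lower in Glia than in Autonomic arrays by -1.02 on the log2 scale (limma adjusted p = 0.729).

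In Mesenchymal arrays the accessory genes Ndufa2 and Ndufa4 were among the lower ones. Ndufa2 had 11.17, 10.90, 11.11 and 11.15 on Mesenchymal arrays, against 11.28, 11.43, 11.56 and 11.33 on NCSCs arrays. Its arrays did not overlap although the change was small, -0.32 (limma adjusted p = 0.648). Ndufa4 had a change of -0.54 (limma adjusted p = 0.648) with overlapping arrays. Ndufs4, a matrix-arm subunit mutated in human Leigh syndrome, had -0.84 in Autonomic and -0.69 in Mesenchymal arrays, but its SE was 0.52. Ndufb4 was measured by a dim probe set that read 5.57 on NCSCs replicate 2 and 1.08 to 1.30 on the other NCSCs arrays. Its changes of -0.78 in Glia, -0.69 in Autonomic and -0.91 in Mesenchymal arrays turned to 0.30, 0.40 and 0.17 without that array.

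The 6 genes with the YY1 letters did not share a direction. Ndufa9 had negative changes in all 3 primed groups, as did the probe set used for Ndufs4, while another bright Ndufs4 probe set gave 0.26 in Glia, 0.16 in Autonomic and -0.37 in Mesenchymal arrays. Ndufs7 had 0.19 in Glia, 0.68 in Autonomic and 0.27 in Mesenchymal arrays, but its other probe set gave -0.17, 0.38 and -0.17, so its sign in Glia and Mesenchymal arrays turned with the probe set. Ndufc1 was at 0.21, 0.41 and 0.00. Atp5j and Atp5j2 lay between -0.19 and 0.15, although another bright Atp5j2 probe set gave -0.52 in Glia arrays. Over the 6 genes, with the probe sets used, the median was 0.09 in Glia, with 4 above 0, -0.10 in Autonomic, with 2 above 0, and -0.10 in Mesenchymal arrays, also with 2 above 0. The RNA of Yy1 itself had changes of 0.14 in Glia, -0.58 in Autonomic and 0.00 in Mesenchymal arrays (limma adjusted p = 0.875, 0.283 and 0.999).

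Complex III hands electrons from ubiquinol to cytochrome c. Its 8 genes had medians of -0.13 in Glia, 0.07 in Autonomic and -0.10 in Mesenchymal arrays. Uqcrq, a small subunit bound to cytochrome b, had the smallest adjusted p of all subunit genes between primed groups, for Autonomic against Mesenchymal arrays. Its log2 intensity was 9.23, 9.82, 9.91 and 9.46 on Autonomic arrays, against 8.26, 8.43, 8.22 and 8.79 on Mesenchymal arrays. The arrays did not overlap, and the difference was 1.18 (SE 0.27, 95% interval 0.61 to 1.75, limma adjusted p = 0.102). It passed the threshold with housekeeping centring (limma adjusted p = 0.0143) and without Glia replicate 4 (adjusted p = 0.0193). Over all genes, 63 passed in the main fit, 95 with this centring and 72 without that array. The centring shifts every gene of an array alike. Leaving out a Glia array leaves the Autonomic and Mesenchymal values unchanged and alters only the estimated spread. Against the NCSCs arrays (9.02, 9.38, 8.96 and 8.86), Autonomic arrays had 0.55 (limma adjusted p = 0.539) and Mesenchymal arrays -0.63 (adjusted p = 0.600), and only the Mesenchymal arrays lay wholly apart.

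The identifier of the Uqcrq probe set marks it as shared between transcripts or genes, and the 3 others of the gene were dim. With such shared probe sets left out, the Uqcrq change in Autonomic arrays was -0.31. Spread within groups differed between the other complex III genes, with residual SDs from 0.212 (Uqcrb) to 1.01 (Uqcr11). Uqcr11 averaged 7.04 ± 1.20 on Glia, 7.15 ± 0.82 on Autonomic, 7.18 ± 1.28 on Mesenchymal and 7.15 ± 0.57 on NCSCs arrays (SD, n = 4 each). Uqcrc1, a matrix-side core protein, had -0.46, 0.05 and -0.32 in the 3 comparisons, and Uqcrfs1, the Rieske iron-sulfur protein, 0.02, -0.07 and -0.38. Over all genes, 0.346% passed the adjusted threshold between Autonomic and Mesenchymal arrays, 0.011% between Glia and Autonomic and 0.225% between Glia and Mesenchymal arrays, with 0 subunit genes in each.

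Complex IV, cytochrome c oxidase, reduces oxygen. Cox7a2l, which helps to join complexes III and IV into supercomplexes, was low in Glia arrays. Its log2 intensity was 9.81, 9.90, 10.04 and 9.81 on Glia arrays, against 10.48, 10.29, 10.28 and 10.64 on NCSCs arrays. The groups did not overlap, and the spread among Glia arrays was narrow (SD 0.11). The log2 change was -0.54 (SE 0.19, 95% interval -0.94 to -0.13, limma adjusted p = 0.324), and the other 2 probe sets of the gene gave -0.57 and -0.62. Glia arrays were also below all Mesenchymal arrays, by -0.47 (limma adjusted p = 0.617), whereas Autonomic arrays had -0.16 and Mesenchymal arrays -0.06 relative to NCSCs.

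Several complex IV subunits exist as a ubiquitous form and a form restricted to muscle, lung or testis. The 5 ubiquitous isoforms had medians of -0.21 in Glia, 0.09 in Autonomic and -0.36 in Mesenchymal arrays, and the 7 restricted isoforms 0.01, -0.06 and 0.11. Cox6b1, the ubiquitous form of a subunit at the dimer interface, had 10.37, 10.43, 10.62 and 10.95 on Mesenchymal arrays, against 11.46, 10.93, 11.30 and 11.25 on NCSCs arrays. All but 1 Mesenchymal array lay below the NCSCs arrays, and the change was -0.65 (SE 0.23, limma adjusted p = 0.525). Its other probe set gave -0.12, and in Autonomic arrays the pair had opposite signs, -0.45 and 0.35. Cox7a2, the ubiquitous form of subunit VIIa, had a change of -0.65 in Mesenchymal arrays (limma adjusted p = 0.609), with -0.38 from its other probe set.

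Cox6b2, the testis form, was higher on all Autonomic arrays (3.69, 5.40, 4.95 and 3.74) than on NCSCs arrays (3.47, 3.64, 3.23 and 3.35). Autonomic replicates 1 and 4 were only just above the NCSCs arrays. The log2 change was 1.02 (SE 0.38, limma adjusted p = 0.373), over a mean signal that was below that of the median gene. Cox4i2, the oxygen-regulated form of subunit IV, had 0.04, -0.47 and -0.02 in Glia, Autonomic and Mesenchymal arrays, and its ubiquitous counterpart Cox4i1 had -0.22, -0.18 and -0.36. In all, 7 of the 78 genes had a mean signal below that of the median gene: Cox4i2, Cox6b2, Cox7a1, Cox7b2, Cox7c, Cox8b and Ndufb4.

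ATP synthase makes ATP in its F1 head, which holds alternating alpha and beta subunits. Atp5b, the catalytic beta subunit, had the smallest adjusted p of all subunit genes against NCSCs. Its log2 intensity was 10.16, 10.52, 10.78 and 10.29 on Autonomic arrays, against 11.02, 11.15, 11.11 and 11.39 on NCSCs arrays. The groups did not overlap, and the log2 change was -0.73 (SE 0.18, 95% interval -1.10 to -0.35, limma adjusted p = 0.109). Glia arrays (10.83, 11.22, 10.96 and 10.90) had -0.19 and Mesenchymal arrays (10.60, 11.17, 11.00 and 11.05) -0.21, and Glia arrays all lay above the Autonomic arrays, by 0.54 (limma adjusted p = 0.629). Atp5a1, the alpha subunit of the same head, had changes of -0.04, 0.02 and 0.00, with group means of 11.86 ± 0.22 on Glia, 11.91 ± 0.05 on Autonomic, 11.90 ± 0.10 on Mesenchymal and 11.90 ± 0.06 on NCSCs arrays (SD, n = 4 each). These values are from the brightest of the Atp5a1 probe sets, whose Autonomic change had a 95% interval of -0.27 to 0.30. A further Atp5a1 probe set gave -0.08, 0.06 and 0.00, but the least bright of the 3 gave -0.74 in Glia, -0.60 in Autonomic and -0.42 in Mesenchymal arrays, so whether the alpha and beta subunits differed depends on the probe set.

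The ring of c subunits turns as protons pass, and 3 genes, Atp5g1, Atp5g2 and Atp5g3, encode the same mature protein. In Glia arrays all 3 were lower than NCSCs without overlap. Atp5g2 had 7.29, 7.71, 7.04 and 7.43 on Glia arrays, against 8.42, 8.12, 7.89 and 8.12 on NCSCs arrays. Atp5g1 had 7.44, 7.28, 6.54 and 7.59 on Glia arrays, against 8.09, 7.96, 7.65 and 8.12 on NCSCs arrays. Atp5g3 had 9.46, 9.50, 9.61 and 9.39 on Glia arrays, against 9.70, 9.68, 9.74 and 9.79 on NCSCs arrays. The log2 changes were -0.77 (SE 0.26, limma adjusted p = 0.302), -0.74 (SE 0.31, adjusted p = 0.432) and -0.24 (SE 0.15, adjusted p = 0.646). In Autonomic arrays they were -0.35, -0.52 and 0.14, and in Mesenchymal arrays -0.37, -0.40 and -0.15, all with overlapping arrays.

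The central stalk couples the ring to the head. Atp5e, its epsilon subunit, had 8.73, 9.02, 9.04 and 8.66 on Glia arrays and 8.51, 9.02, 9.10 and 9.11 on Mesenchymal arrays, against 9.32, 9.51, 9.38 and 9.37 on NCSCs arrays. Both primed groups lay wholly below the NCSCs arrays, with changes of -0.53 (limma adjusted p = 0.330) in Glia and -0.46 (adjusted p = 0.592) in Mesenchymal arrays. The 3 central stalk genes were below 0 in all 3 comparisons, with medians of -0.23 in Glia, -0.17 in Autonomic and -0.22 in Mesenchymal arrays. The peripheral stalk holds the head still, and its gene Atp5h, subunit d, was within 0.06 of NCSCs in each group by the probe set used, while its other probe set gave -0.32 in Glia arrays. Another peripheral stalk gene, Atp5o, was higher on all Glia than on all Mesenchymal arrays, by 0.57 (limma adjusted p = 0.686), while against NCSCs its other probe set gave 0.15 in Glia and -0.08 in Mesenchymal arrays.

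Higher values after priming were found for a pair of genes of the membrane part. Atp5l, which encodes subunit g and helps ATP synthase to form dimers, had 6.86, 6.42, 7.09 and 7.16 on Glia arrays, 6.93, 6.81, 6.94 and 7.36 on Autonomic arrays and 6.96, 7.01, 7.12 and 7.04 on Mesenchymal arrays, against 6.59, 6.68, 6.62 and 6.40 on NCSCs arrays. Every Autonomic and Mesenchymal array exceeded every NCSCs array, and 1 Glia array did not. The changes were 0.31 (limma adjusted p = 0.606) in Glia, 0.44 (adjusted p = 0.415) in Autonomic and 0.46 (adjusted p = 0.537) in Mesenchymal arrays. Atp5k, subunit e, which pairs with subunit g, had 0.33, 0.39 and 0.33, and its Autonomic arrays (11.18, 11.41, 11.15 and 11.33) lay above all NCSCs arrays (11.08, 10.55, 10.96 and 10.92). The 5 membrane-part genes had medians of 0.02 in Glia, 0.20 in Autonomic and -0.04 in Mesenchymal arrays.

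**Figure D5:**
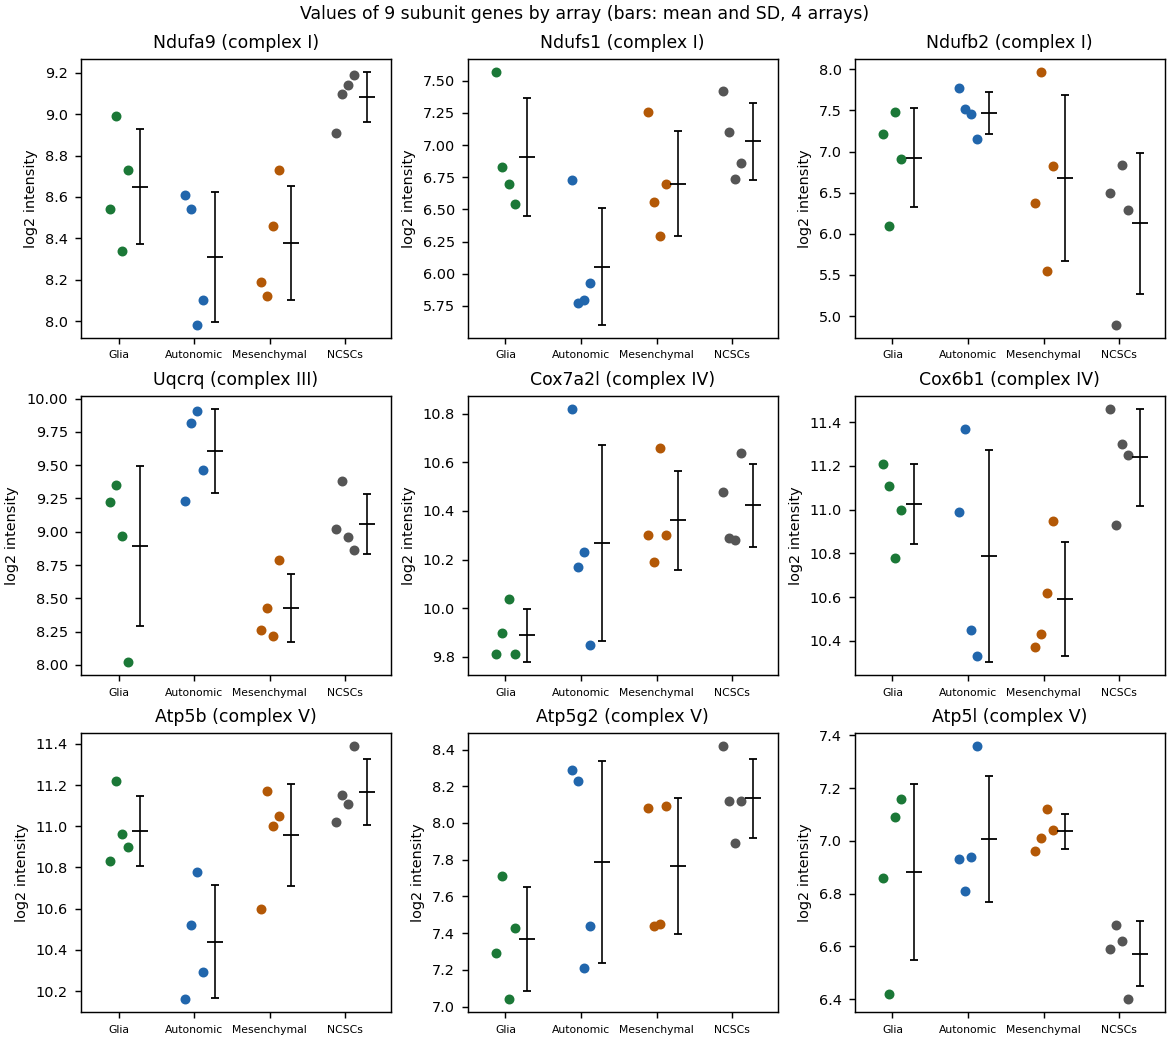
Log2 intensity (y axis, a separate scale in each panel) of 9 subunit genes on the Glia, Autonomic, Mesenchymal and NCSCs arrays; points are arrays, bars are mean and SD of 4 arrays. Atp5b and Ndufs1 are lowest on Autonomic arrays, Cox7a2l and Atp5g2 on Glia arrays, Uqcrq and Cox6b1 on Mesenchymal arrays, and Atp5l is lowest on NCSCs arrays.

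Of the 78 genes, 46 had more than 1 probe set with their symbol alone, and 38 had at least 2 that were brighter than the median gene. These brighter probe sets of a gene agreed in sign for 25 of the 38 genes in Glia, 18 in Autonomic and 30 in Mesenchymal arrays.

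Genes that work with the subunits were also read from lists. Complex II, which feeds electrons from succinate, had 0 of 4 genes past the adjusted threshold in each comparison, with medians of -0.02 in Glia, 0.04 in Autonomic and 0.22 in Mesenchymal arrays. Electron carriers and coenzyme Q synthesis had 0 of 15, with medians of -0.15, -0.07 and -0.22. Assembly factors had 0 of 45, with medians of -0.23, -0.14 and -0.30. Genes for the expression of mitochondrial DNA had 0 of 19 (medians 0.00, -0.16 and -0.06), carriers and uncouplers 0 of 13 (medians -0.02, -0.09 and -0.04), and import and cristae genes 0 of 23 (medians -0.20, -0.21 and -0.40). Transcriptional regulators of respiration had 0 of 18, with medians of -0.10, -0.14 and -0.17. Among them Nrf1, a transcription factor of nuclear mitochondrial genes, had -1.38 in Glia, -0.92 in Autonomic and -1.20 in Mesenchymal arrays (limma adjusted p = 0.220, 0.489 and 0.525). The coactivator Ppargc1a had -0.51, -0.44 and -0.29, but its group means of 2.73 to 3.24 were dim, below the median gene (3.89). Gabpa, a subunit of GABP, had 0.00, -0.21 and -0.91. Tfam, which packages and transcribes mitochondrial DNA, had -0.46, -0.76 and -0.63.

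Marker genes bear on the labels. Among 6 crest markers only Ngfr, the p75 receptor, passed the threshold, with changes of -1.87 in Glia and -2.75 in Autonomic arrays. No gene passed among 4 measured glia markers, 4 autonomic neuron markers, 6 markers of smooth muscle and mesenchyme, 6 of striated muscle, 3 of blood, 4 of endothelium, 4 of macrophages, 4 of neural tube or 4 of melanocytes, nor among 8 housekeeping genes. The summed linear intensity of the glia markers was 138 to 233 on Glia arrays and 344 to 524 on NCSCs arrays. Only 1 of these 4 markers, Fabp7, was brighter than the median gene, and it had a change of -1.45 in Glia arrays, while S100b had 0.24, Cdh19 had 0.61 and the list's median was 0.12. The summed intensity of the autonomic neuron markers was 36.9 to 60.3 on Autonomic arrays and 32.7 to 42.1 on NCSCs arrays. That of the smooth muscle and mesenchyme markers was 520 to 3983 on Mesenchymal arrays and 138 to 773 on NCSCs arrays. It was 1432 to 1838 on Glia arrays and 452 to 3292 on Autonomic arrays. The median change of this list was 1.02 in Glia, 1.70 in Autonomic and 0.74 in Mesenchymal arrays, so it was not highest under the Mesenchymal label. No defining marker of the glial, neuronal or mesenchymal fate therefore passed the test in the arrays labelled for that fate, and the groups are called by their labels.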

How the data were processed

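RNA of 16 samples was measured on 1 type of Affymetrix mouse array, from 2 ug of total RNA each with a one-cycle labelling kit per the labels' protocols. The authors deposited 1 intensity per probe set and array, and per the submitters' processing notes these values come from RMA, version not given. The values run from 1.487 to 31600, so they are linear, and log2 was taken without an offset or further normalization. Array medians were 8.26 to 8.85. Arrays have no read depth, so precision depends on the number of arrays. No 2 arrays were identical.

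Of 45101 probe sets, 34958 carried 1 symbol, 932 several and 9211 none in the platform annotation. Only those with 1 symbol were used, and the brightest stood for each of 18194 genes. All 78 subunit genes matched the GRCm38.p6 gene table by Entrez identifier. With limma 3.58.1 in R 4.3.3, group means were fitted jointly to the 16 arrays, p-values were two-sided, and Benjamini-Hochberg adjustment ran over all genes in each of 7 comparisons. The scripts were tested on simulated data. The rule for naming took genes passing the test, the 4 largest changes each way against NCSCs and the 2 smallest adjusted p per complex. It also took the isoform families, the 2 members that differed most in each direction between primed groups, and 5 regulators. Uqcr10, Ndufa7, Ndufv3, Uqcrc2, Cox8a and Cox8c met this rule but are not described above. Genes outside the rule, such as Atp5a1, Atp5h, Atp5j, Ndufc1, Ndufa2 and Uqcr11, were named after their values were seen. The subunit genes and the 18 gene lists were chosen with earlier results of these data known.

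Replicate numbers were checked for pairing. Same-numbered arrays of different groups had residual correlations of -0.07 to 0.06 over 24 pairs, none over 0.1, so the numbers were not used as pairs. Alternatives were 13 other settings and leaving out each of 16 arrays. The count of genes whose arrays do not overlap was recomputed without each array as an alternative chosen after seeing the data.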

Additional observations from a re-analysis of the deposited data

Results flagged for a closer look

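Among 176 groups of 4 arrays examined, 6 (3.41%) held 1 array far from the other 3 by Dixon's criterion, where chance gives about 1 in 20. Ndufb4 read 5.57 on NCSCs replicate 2, against 1.08 to 1.30 on the other NCSCs arrays. Ndufs1 read 6.73 on Autonomic replicate 1, against 5.77 to 5.93 on the others of its group. Ndufb5 read 9.55 on Autonomic replicate 3, against 10.26 to 10.38. Atp5e read 8.51 on Mesenchymal replicate 1, against 9.02 to 9.11. Cox6a2, a muscle isoform of complex IV, read 4.83 on Glia replicate 1, against 5.02 to 5.04. The mean over complex I genes was 8.52 on Mesenchymal replicate 4, against 8.35 to 8.37 on the other Mesenchymal arrays.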

How the results depend on the processing

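No subunit gene passed the adjusted threshold in any of the 7 comparisons, and this held under the 13 other settings (12 for the mean of the primed groups, to which fitting only the groups compared does not apply) and without each of 16 arrays, with the following exceptions. With the replicate block, 1 gene passed in Autonomic arrays (Ndufs1, adjusted p = 0.0250), and the block changed no other call. With shared probe sets left out, 63 subunit genes of 16593 genes remained to be tested and 1 passed in Glia arrays (Ndufv2, adjusted p = 0.0442) and in the mean of the primed groups (adjusted p = 0.0241). The Ndufv2 probe set tested there gave -0.91 in Glia arrays, whereas the brighter one used otherwise gave 0.07, so the direction turned between probe sets. With housekeeping centring, 1 passed between Autonomic and Mesenchymal arrays (Uqcrq). Without 1 array each, that count ranged from 0 to 1.

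The median log2 change of the 78 genes moved with the scaling of the arrays. In Glia it was -0.0084 after quantile normalization, 0.0093 after cyclic loess and 0.217 with housekeeping centring. In Autonomic arrays it was 0.0935 and 0.205 after loess and housekeeping centring, and in Mesenchymal arrays -0.0235 after cyclic loess. For the mean of the primed groups it was 0.0034, 0.0282 and 0.0794 under quantile, loess and housekeeping scaling, the last against 0.18 for all genes.

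Without 1 array each, the number of genes whose arrays do not overlap ranged from 0 to 2 higher and 6 to 9 lower in Glia, 5 to 7 higher and 4 to 6 lower in Autonomic, and 1 to 2 higher and 5 to 13 lower in Mesenchymal arrays. Leaving out an array cannot lower these numbers, and no share of all genes was recomputed beside them. Of 117 changes of named genes against NCSCs, 53 kept their sign under every setting. The cause of these movements was not tested. With 4 arrays a group, some changes above 2-fold did not pass either. Ndufb2 in Autonomic arrays had 1.34 on the log2 scale (limma adjusted p = 0.345). Its other probe sets gave 1.00 and 0.47, and NCSCs replicate 2 was low (4.89, against 6.29 to 6.84 on the other NCSCs arrays). A gene that did not pass may therefore still have changed.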
